A study of Homo sapiens with 41 samples.

Results

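Complement components, protease inhibitors and fibrinogen chains of the acute phase response were followed through a layered alveolar culture exposed to gold particles. The genes were taken by name: C3, CFB, C1R, C1S, SERPINA1, SERPINA3, FGA, FGB and FGG, 9 of the 57773 genes in the count table, of which 28140 had a read in at least 1 library. The apical layer held A549 cells, a human lung adenocarcinoma line, with differentiated THP1 cells, a monocytic leukaemia line, grown at an air-liquid interface. The basolateral layer was labelled EA.hy296 and grown submerged. Each layer had an untreated control and 6 groups given gold spheres, rods or stars under the label 1000 or 500, whose unit is not given in the sources used here. Exposure lasted 24 h. Each group had 3 replicates, except basolateral spheres 500 with replicates 1 and 3, which gave 21 apical and 20 basolateral libraries. All groups, controls included, came from tumour or immortalised lines, so the values describe those lines and not lung tissue. EA.hy926, a name that differs from the label in the order of its digits, is a hybrid line made from umbilical vein endothelial cells and A549; whether the label means that line is not given in the sources used here.

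Fibrinogen is a plasma protein built from pairs of Aα, Bβ and γ chains, which FGA, FGB and FGG encode in a single cluster. Thrombin trims the Aα and Bβ chains so that fibrin polymerises. C1R and C1S encode the serine proteases of the first classical-pathway complex, C3 the component on which all activation routes meet, and CFB the protease subunit of the alternative-pathway C3 convertase. SERPINA1 (α1-antitrypsin) inhibits neutrophil elastase and SERPINA3 (α1-antichymotrypsin) inhibits cathepsin G. The liver is the main source of most of these proteins, and its acute phase response raises them through interleukin-6 with STAT3, through C/EBP factors and, for complement, through interleukin-1. Lung epithelial lines, A549 among them, also make fibrinogen and complement components.

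The 3 fibrinogen genes moved together from library to library (below), so the sequence upstream of each RefSeq start is shown, positions -250 to -26 (225 bases, GRCh38.p14, RefSeq). The strands are minus for FGA and FGG and plus for FGB, for which the first of 2 RefSeq starts was used. Capitals mark the motifs searched on both strands, which were CTGGGAA for the interleukin-6 response core, TTGCNNAA for C/EBP and TTCNNNGAA for STAT.
FGA, chr4:154590768-154590992: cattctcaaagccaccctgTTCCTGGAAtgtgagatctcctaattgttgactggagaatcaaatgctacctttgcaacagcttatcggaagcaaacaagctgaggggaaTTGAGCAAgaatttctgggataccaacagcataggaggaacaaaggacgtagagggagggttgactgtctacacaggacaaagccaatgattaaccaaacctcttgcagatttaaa
FGB, chr4:154562730-154562954: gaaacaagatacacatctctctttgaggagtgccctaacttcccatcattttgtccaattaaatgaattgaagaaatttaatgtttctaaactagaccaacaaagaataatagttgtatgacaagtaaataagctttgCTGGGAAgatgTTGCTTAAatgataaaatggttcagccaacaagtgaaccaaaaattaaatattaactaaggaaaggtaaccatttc
FGG, chr4:154612682-154612906: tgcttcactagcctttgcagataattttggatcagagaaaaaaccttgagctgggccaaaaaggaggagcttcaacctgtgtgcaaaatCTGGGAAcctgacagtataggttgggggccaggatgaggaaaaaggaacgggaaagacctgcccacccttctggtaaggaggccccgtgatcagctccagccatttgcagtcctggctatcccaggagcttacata
FGB and FGG each held CTGGGAA, with its first base at -112 and -161. C/EBP letters stood at -141 in FGA and at -101 in FGB, and STAT letters at -231 in FGA. Among 34943 promoter windows of the same length, 8.24% held CTGGGAA, 8.43% the C/EBP letters and 6.1% the STAT letters. A match is a description of the letters and was not tested as a binding site. The genes lie on chromosome 4 of GRCh38 (GENCODE 29) within a single stretch, FGB at 154562956 to 154571086 on the plus strand, FGA at 154583126 to 154590766 and FGG at 154604134 to 154612967, both on the minus strand.

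Depth ran from 5243388 to 11660653 counts in the apical layer and from 2751299 to 10538069 in the basolateral layer. A floor of 3 counts therefore came to 0.257 to 1.09 CPM (counts scaled to 1000000 per library). Among low counts, 67.7 to 78.9% were even numbers in each library, and the cause was not tested. Low counts may therefore not stand for as many separate fragments. The p-values below measure only the spread between these libraries, since nothing in the sources used here says whether replicates were separate cultures. Summed epithelial markers (17 genes) reached 11851 to 19308 CPM in apical and 657 to 4369 CPM in basolateral libraries, and endothelial markers (12 genes) 54.6 to 145 and 1798 to 2950 CPM. Macrophage markers (11 genes) summed to 874 to 1243 CPM in apical libraries and 41.8 to 313 CPM in basolateral libraries. Mast cell markers (8 genes) stood at 168 to 1476 CPM in apical libraries, although the labels name no mast cell, and KIT alone fell into 3 sets of 7 apical libraries without overlap, at 760 to 973, 444 to 513 and 103 to 138 CPM. The first set held replicate 1 of all 7 groups. The middle set held replicate 2 of control, spheres 1000 and rods 1000, replicates 2 and 3 of spheres 500, and replicate 3 of both stars groups, and the lowest set held the other 7 libraries. These sets were formed from the KIT level with results of these data known and are not groups of the study. Control, spheres 1000, rods 1000 and both stars groups each held 1 library of every set, while spheres 500 had 2 in the middle set and rods 500 had 2 in the lowest.

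By their medians in the apical layer the fibrinogen chains were the most abundant of the 9 genes and SERPINA1 the least. Per kilobase of exon, the median level over 21 apical libraries was 616 CPM for FGB, 282 CPM for FGA and 254 CPM for FGG, followed by C3 at 87.5 CPM. C1S (61.9 CPM per kb), C1R (59.8 CPM per kb) and CFB (51.9 CPM per kb) came next, and SERPINA3 (8.86 CPM per kb) and SERPINA1 (2.57 CPM per kb) closed the order. The ranges of FGA and FGG overlapped over most of their length, as did those of C1S, C1R and CFB, and C3 (64.6 to 129 CPM per kb) reached into those of C1S, FGG and FGA, so these neighbours were not ordered beyond their spread. In 4 libraries of the lowest KIT set C3 stood above FGG per kilobase, among them control replicate 3 with 117 CPM per kb for C3 and 115 CPM per kb for FGG. SERPINA3 (4.54 to 20.4 CPM per kb) lay below every library's CFB (26.1 to 85.0 CPM per kb) and above every library's SERPINA1 (1.83 to 3.13 CPM per kb). Together the fibrinogen chains took 0.141 to 0.886% of an apical library and 0.00108 to 0.161% of a basolateral one.

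**Figure D1:**
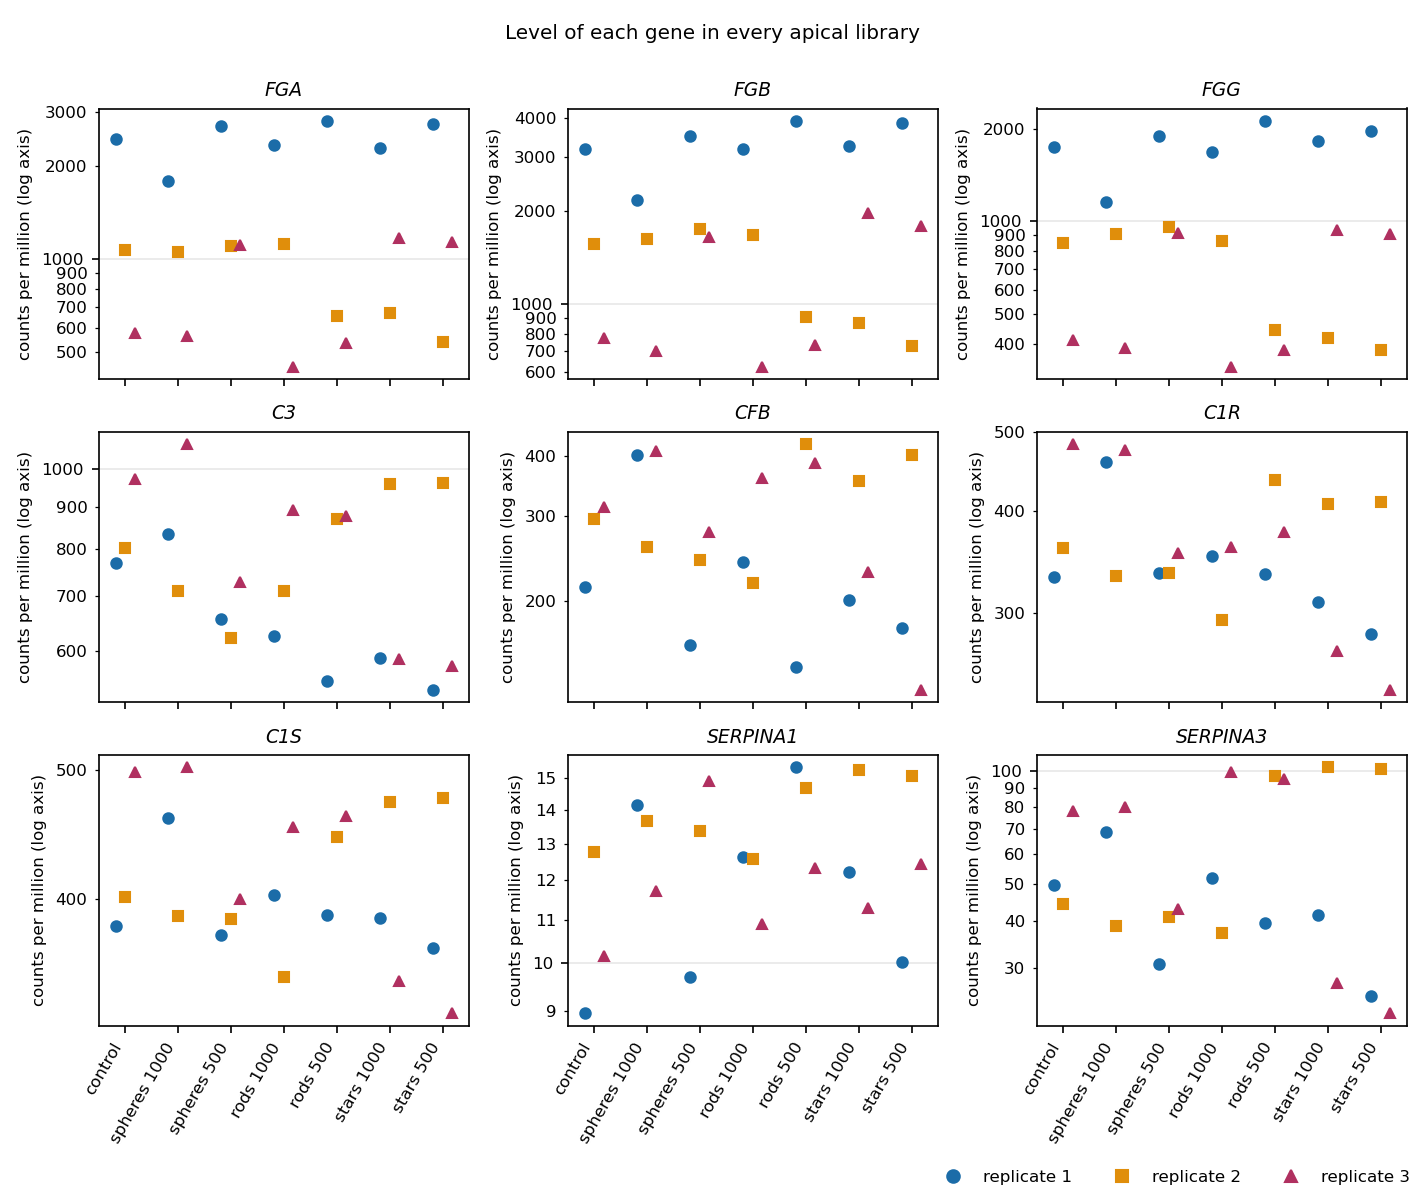
Level of each gene in CPM (log axis) in all 21 apical libraries, by group on the horizontal axis; each point is 1 library, blue circles replicate 1, orange squares replicate 2, red triangles replicate 3. FGA, FGB and FGG were highest in replicate 1 of every group, with FGB between 2179 and 3930 CPM there and at or below 1972 CPM elsewhere.

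The 3 fibrinogen genes differed by replicate number and not detectably by particle. In replicate 1 of the 7 apical groups FGB stood at 2179 to 3930 CPM (median 3262 CPM). In replicate 2 it stood at 728 to 1751 CPM (median 1565 CPM), and in replicate 3 at 625 to 1972 CPM (median 773 CPM). Replicate 1 of every group lay above both other replicates of all groups, while replicates 2 and 3 overlapped. The same split ran through FGA, at 1790 to 2812 CPM in replicate 1 and 448 to 1172 CPM elsewhere, and through FGG, at 1159 to 2121 CPM against 338 to 960 CPM.

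A test of replicate number with group as the other term was added after the split had been seen, so it describes the pattern and is not independent of it. In that test (edgeR quasi-likelihood, Benjamini-Hochberg over 15225 genes) 3 of the 9 members were called in the apical layer, the fibrinogen genes, where 11.8% of all genes were called. On the log2 scale, in edgeR, replicate 2 against replicate 1 was -1.44 ± 0.25 (SE) for FGA (adjusted p = 0.00397), -1.31 ± 0.31 for FGB (adjusted p = 0.0184) and -1.35 ± 0.31 for FGG (adjusted p = 0.017). Replicate 3 against replicate 1 was -1.66 ± 0.25, -1.55 ± 0.31 and -1.59 ± 0.31 in the same order, with edgeR adjusted p of 0.0014, 0.00634 and 0.00571. Over all genes 6.3% were called lower (10.8% in either direction) in the former contrast and 8.53% (14.6% in either direction) in the latter. The fibrinogen genes stayed called for any difference by replicate without each of the 21 libraries in turn. Over all genes 1804 were called, 979 without rods 500 replicate 1 and 1155 without rods 1000 replicate 1. For FGB the contrast of replicate 2 with 1 missed the threshold in edgeR without rods 500 replicate 1 (adjusted p = 0.0507) or rods 500 replicate 2 (adjusted p = 0.0527).

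By the KIT sets the split was sharper. FGB stood at 2179 to 3930 CPM in the first set, 1565 to 1972 CPM in the middle set and 625 to 907 CPM in the lowest set, with no overlap, and FGA and FGG did not overlap between sets either. The share of all genes that separate by these sets is not given here, so the separation is not shown to be particular to fibrinogen. KIT and the mast cell markers were not members, and their part in the fibrinogen levels was not tested.

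The chains kept close ratios while their levels moved. FGG counts were 0.475 to 0.557 of FGB counts and FGA counts 0.595 to 0.821 of FGB counts in the 21 apical libraries, over a range of 6.29-fold in FGB. In basolateral libraries, where FGB fell as low as 3.54 CPM, the FGG ratio ran from 0.174 to 0.808 and the FGA ratio from 0.456 to 1.23, with medians of 0.522 and 0.629. The lowest FGG ratio, in basolateral spheres 1000 replicate 3, rested on 8 counts of FGG.

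**Figure D2:**
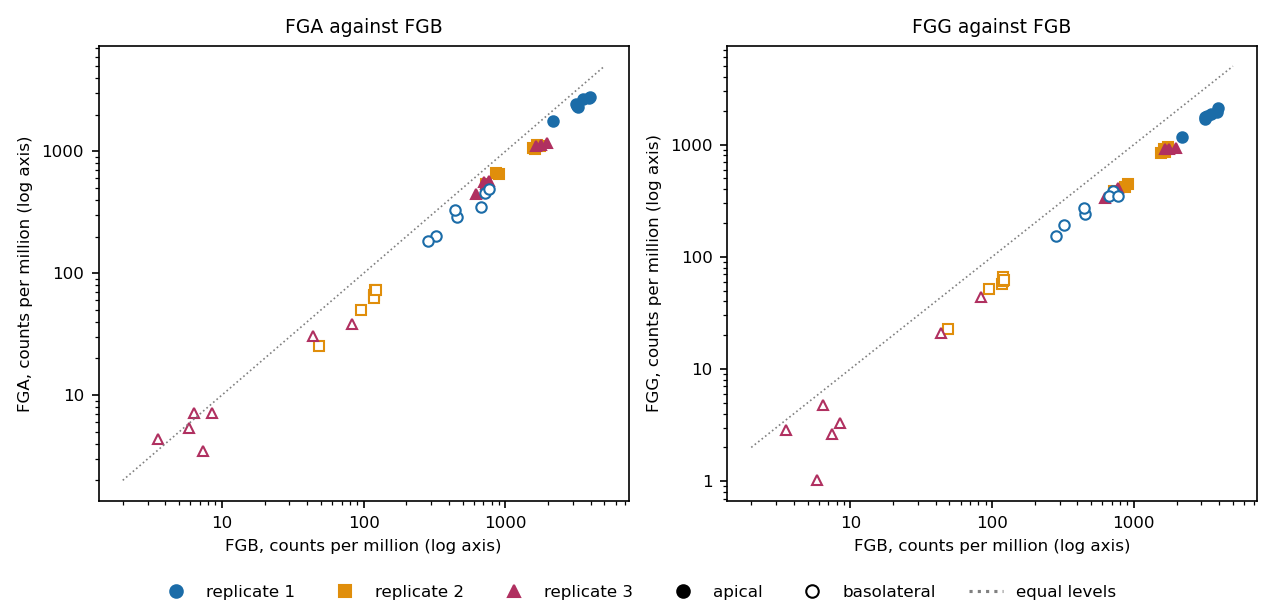
FGA (left) and FGG (right) against FGB in CPM, log axes, for 41 libraries; filled symbols are apical, open symbols basolateral, colours and shapes the replicate number, and the dotted line marks equal levels. The apical points run parallel to the dotted line, with FGG at 0.475 to 0.557 of FGB.

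C3, CFB, SERPINA3, C1R and C1S did not share the fibrinogen order. C3, the central complement component, was lowest in replicate 1 by its median (626 CPM, range 538 to 834 CPM), with 802 CPM (622 to 963 CPM) in replicate 2 and 878 CPM (576 to 1074 CPM) in replicate 3. SERPINA3 had medians of 41.5, 44.3 and 78.2 CPM in replicates 1 to 3, and CFB of 201, 296 and 314 CPM. The ranges of all 3 replicates overlapped for each of these genes, and none was called by replicate in edgeR (adjusted p 0.23 for C3, 0.313 for CFB and 0.534 for SERPINA3). In the lowest KIT set, C3 (870 to 1074 CPM) and SERPINA3 (78.2 to 102 CPM) lay above every library of the other sets, where C3 reached 834 CPM and SERPINA3 68.6 CPM. CFB in that set (314 to 425 CPM) overlapped spheres 1000 replicate 1, at 403 CPM. For this separation too the share of all genes is not given here. SERPINA1 kept within 8.96 to 15.4 CPM in all 21 apical libraries. C1R and C1S, whose products act as partners, kept a count ratio of 0.734 to 0.996.

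The ratio of C3 to FGB counts set the basolateral libraries apart by replicate number without overlap. It was 0.114 to 0.195 in the 7 libraries of replicate 1, 0.226 to 0.506 in the 6 of replicate 2 and 1.01 to 2.5 in the 7 of replicate 3. In the apical layer the same ratio was 0.139 to 0.383 in replicate 1, while replicates 2 (0.355 to 1.32) and 3 (0.298 to 1.53) overlapped. The apical stars libraries carried 1.11 and 1.32 in replicate 2 and 0.298 and 0.323 in replicate 3 (1000, then 500), the reverse of the basolateral stars libraries at 0.345 and 0.226 in replicate 2 and 1.09 and 2.5 in replicate 3. Rods 500 replicate 2 had 0.959 in the apical and 0.406 in the basolateral layer, and spheres 500 replicate 3 had 0.442 and 1.23. Whether same-numbered libraries of both layers came from 1 culture is not given in the sources used here, and whether any numbers were exchanged was not tested.

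**Figure D3:**
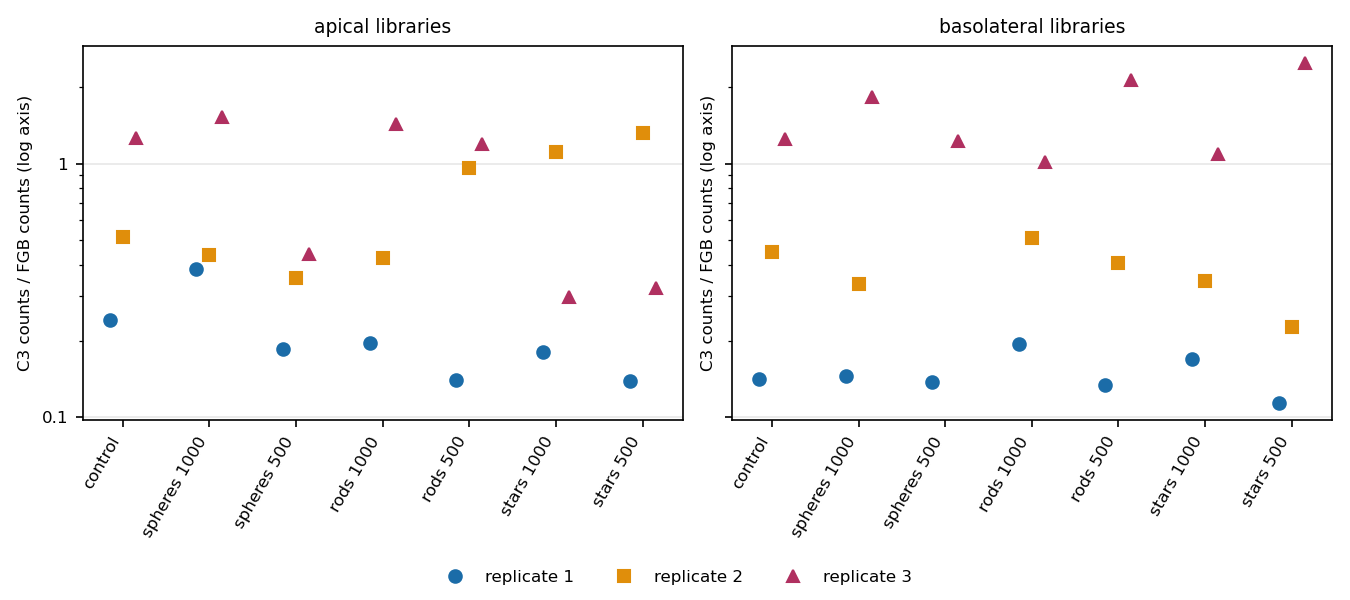
Ratio of C3 counts to FGB counts (log axis) in each library, apical on the left and basolateral on the right, by group; colours and shapes give the replicate number. Basolateral replicates separate at 0.114 to 0.195, 0.226 to 0.506 and 1.01 to 2.5, while the apical stars groups have replicate 2 above replicate 3.

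Gold particles changed none of the 9 genes by the test used in the apical layer. In each of the 6 comparisons with control 0 of 9 members were called by edgeR, as were 0% of the 14004 to 14206 genes tested, and DESeq2 and limma-voom called 0 members too. All 6 comparisons share the same 3 control libraries. At an unadjusted p under 0.05, C3 and SERPINA3 passed in spheres 500 and no member passed in the other 5 comparisons. Over the 6 comparisons 1.11 to 3.25% of all genes passed that limit.

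C3 in the apical control was 768, 802 and 972 CPM in replicates 1 to 3, and in spheres 500 it was 656, 622 and 728 CPM. SERPINA3 was 49.8, 44.3 and 78.2 CPM in control and 30.7, 40.8 and 42.8 CPM in spheres 500. For both genes every spheres 500 library lay below every control library, which held for 2 of 9 members, where 9.77% of all genes did not overlap with control. The log2 fold change was -0.37 ± 0.12 (SE) for C3 (edgeR unadjusted p = 0.0125, adjusted p = 0.999) and -0.62 ± 0.24 for SERPINA3 (unadjusted p = 0.0371, adjusted p = 0.999). Both replicates 2 and 3 of spheres 500 belonged to the middle KIT set, where C3 and SERPINA3 were lower than in the lowest set that holds control replicate 3. Within the first set C3 was 656 CPM in spheres 500 and 768 CPM in control, and SERPINA3 30.7 and 49.8 CPM. Within the middle set C3 was 622 and 728 CPM beside 802 CPM in control, and SERPINA3 40.8 and 42.8 CPM beside 44.3 CPM. The part of set membership in these differences was not tested. With the KIT set as a term the values were -0.17 ± 0.10 and -0.07 ± 0.31, and without control replicate 3 the C3 value was -0.24 and the SERPINA3 value -0.31.

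With the KIT set as a term, other C3 values moved away from 0. C3 was -0.34 ± 0.10 for rods 500 (unadjusted p = 0.00216), -0.33 ± 0.10 for stars 500 (unadjusted p = 0.00234) and -0.29 ± 0.10 for stars 1000 (unadjusted p = 0.0066) in that edgeR fit, against -0.12 ± 0.21, -0.28 ± 0.25 and -0.25 ± 0.22 without it. Rods 1000 (-0.20 ± 0.10) and spheres 1000 (0.05 ± 0.10) did not pass at 0.05 unadjusted. The edgeR adjusted p for C3 in that fit was 0.785 in rods 500, 0.825 in stars 500 and 0.769 in stars 1000. The sets were cut from KIT in these same libraries after exposure, and C3 was itself higher in the lowest set. Unadjusted p-values of that fit therefore describe it and do not show a particle effect. In the lowest set, control stood at 972 CPM beside 870 and 878 CPM in rods 500, 959 CPM in stars 1000 and 963 CPM in stars 500. In the first set, control stood at 768 CPM beside 552 CPM in rods 500, 588 CPM in stars 1000 and 538 CPM in stars 500. In the middle set, which held no rods 500 library, control stood at 802 CPM beside 587 CPM in stars 1000 and 576 CPM in stars 500. C1R was -0.34 ± 0.11 in stars 500 (unadjusted p = 0.00542) and -0.26 ± 0.11 in stars 1000 (unadjusted p = 0.0289) in the same edgeR fit. SERPINA1 in rods 500 went the other way in that fit, at 0.44 ± 0.21 (unadjusted p = 0.0405). No gene of 15225 was called in any comparison with control in that fit, and the edgeR adjusted p for C3 in the test of any difference between the 7 groups was 0.617. Unadjusted, 1.22 to 3.33% of all genes passed as lower in these comparisons, and the share that passed as higher is not given here.

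The fibrinogen genes showed no particle difference that these libraries could resolve. In control FGB was 3176, 1565 and 773 CPM in replicates 1 to 3. It was 3516, 1751 and 1649 CPM in spheres 500 and 3930, 907 and 734 CPM in rods 500. The spread within each group spanned that between groups. The log2 fold changes of FGA, FGB and FGG lay between -0.27 (spheres 1000) and 0.30 (spheres 500), with SE of 0.59 to 0.81. These fits held no term for replicate number. For spheres 1000, the only comparison that met the rule for pairs (below), a replicate block called no member. With the KIT set as a term the SE fell to 0.11 to 0.12, and FGB ranged from -0.17 ± 0.12 (spheres 1000) to 0.24 ± 0.12 (rods 500), none called. FGB did not overlap between those sets, which were cut from these same libraries. The largest CFB value was 0.39 ± 0.21 in spheres 1000 (0.24 without control replicate 1), from 214, 296 and 314 CPM in control and 403, 259 and 410 CPM in the particle group, which overlapped. SERPINA1 was 0.17 to 0.42 above control in all 6 groups, with SE of 0.21 to 0.25.

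**Figure D4:**
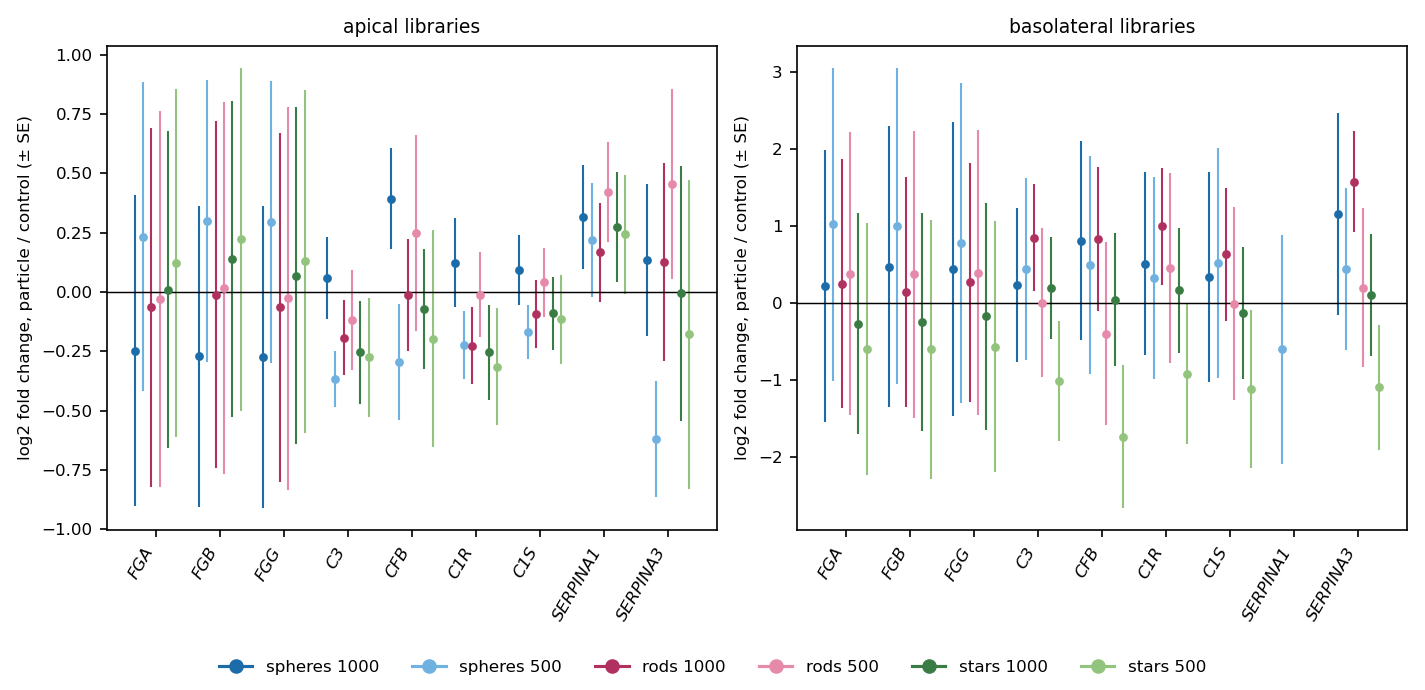
Log2 fold change against control of the same layer, with its standard error (bars), for each gene and particle group; apical comparisons on the left, basolateral on the right, on different vertical scales. No value was called; the fibrinogen genes carry bars of 0.59 to 0.81 in the apical layer.

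Particle shapes and labels were also compared directly. Between shapes under the same label and between 1000 and 500 within a shape, 0 of 9 members were called in 9 apical and 9 basolateral contrasts, beside 0% of genes in each. The tests of any difference between the 7 groups of a layer called 0 members beside 0% of genes, and so did the 6 tests of whether a particle difference varied between layers (0% of 16352 genes). DESeq2 and limma-voom called 0 members in these tests too. At an unadjusted p under 0.05, edgeR passed 0 members in either test of any difference and in these direct contrasts. With the KIT set as a term, the apical edgeR test of any difference passed 3 of 9 members unadjusted, beside 5.86% of genes. They were C3 (unadjusted p = 0.00147), C1R (unadjusted p = 0.00426) and FGB (unadjusted p = 0.0389) in that edgeR fit. In that fit spheres 1000 against stars 1000 passed 4 of 9 members unadjusted, beside 12.1% of genes. C3 (0.34 ± 0.10), C1R (0.39 ± 0.11) and C1S (0.19 ± 0.08) were higher and FGB (-0.35 ± 0.12) was lower in spheres 1000, with edgeR adjusted p of 0.15 to 0.349. Spheres 1000 against rods 1000 passed C3, C1R and C1S unadjusted (7.41% of genes), and rods 1000 against rods 500 passed the 3 fibrinogen genes (4.29% of genes). C3 passed between spheres 1000 and spheres 500 (5.46% of genes) and C1R between spheres 500 and stars 500 (3.82% of genes), and the other 4 contrasts passed 0 members beside 3.03 to 3.5% of genes. After adjustment edgeR called 0 members with the KIT set as a term, and 1 gene outside the list (0.00657%) between spheres 1000 and rods 1000. The sets were cut from these same libraries, so the unadjusted p-values with that term describe the fit only.

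In the basolateral layer the levels were lower and spread more widely. FGB in the basolateral control was 454, 120 and 7.42 CPM in replicates 1 to 3, and C3 was 64.3, 53.5 and 9.28 CPM. Over all 20 libraries FGB ran from 3.54 to 770 CPM and C3 from 8.85 to 106 CPM. SERPINA1 was listed at 0 in 5 libraries and had a median of 0.549 CPM, near the floor. Its highest level was 2.47 CPM in rods 500 replicate 1, where the floor was 0.285 CPM. SERPINA1 passed the filter on low counts in only 1 of the 6 comparisons with control. Again 0 members were called in the 6 comparisons (8 of 9 tested in 5 of them), as were 0% of 13030 to 13659 genes, and DESeq2 and limma-voom called 0 members. SERPINA3 in rods 1000 was the only member to pass at an unadjusted p under 0.05 in edgeR, where 2.98% of genes passed.

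SERPINA3 was 3.94, 3.66 and 0.437 CPM in the basolateral control, the last from 4 counts, and 9.40, 4.59 and 10.1 CPM in rods 1000. Every rods 1000 library lay above every control library, which held for 1 of 9 members, where 8.69% of all genes did not overlap with control. The log2 fold change was 1.58 ± 0.66 (edgeR unadjusted p = 0.0431, adjusted p = 0.998). Summed epithelial markers were 2729, 1756 and 761 CPM in control and 2521, 1977 and 2007 CPM in rods 1000. With that sum as a covariate in an edgeR fit of all 7 groups the value was 1.23 ± 0.59 (unadjusted p = 0.0527). CFB in stars 500 had the largest size, -1.74 ± 0.93 (edgeR unadjusted p = 0.115), from 19.8, 28.6 and 1.75 CPM in control and 7.55, 4.21 and 3.13 CPM, which overlapped. Without control replicate 2 it was -1.10. DESeq2 gave the same CFB difference an unadjusted p of 0.0183 and no call.

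Replicate number marked the basolateral layer as well. FGB was 283 to 770 CPM in replicate 1, 48.8 to 122 CPM in replicate 2 and 3.54 to 83.4 CPM in replicate 3. C1R was 19.9 to 77.1 CPM, 8.74 to 31.7 CPM and 3.41 to 45.3 CPM in that order. In the edgeR test of replicate number 7 of 9 members were called, where 24% of 14594 genes were. CFB (edgeR adjusted p = 0.114) and SERPINA1 (edgeR adjusted p = 0.0682) were not called. Replicate 3 against replicate 1 was -4.97 ± 0.68 for FGB and -1.82 ± 0.46 for C3 on the log2 scale, with 7 members called lower beside 14.9% of genes (29.1% in either direction). Replicate 2 against replicate 1 was called for FGA alone (-2.51 ± 0.51, edgeR adjusted p = 0.0365), beside 1.24% of genes called lower (2.06% in either direction). Rods 1000 replicate 3 stood apart within its number, with FGB at 83.4 CPM, C3 at 84.2 CPM and C1R at 45.3 CPM. So did stars 1000 replicate 3, with FGB at 43.7 CPM, C3 at 47.9 CPM and C1R at 23.4 CPM, while the other 5 libraries of replicate 3 had FGB at 3.54 to 8.51 CPM.

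The fibrinogen genes stayed called without each of the 20 basolateral libraries in turn, and the other members did not. Only the 3 fibrinogen genes were called without replicate 1 or 3 of rods 500, replicate 1 or 3 of spheres 500, or replicate 1 of spheres 1000. C1R was called beside them without control replicate 1, spheres 1000 replicate 3, or replicate 1 or 3 of stars 500. All 9 were called without rods 1000 replicate 3, where 4188 of 14560 genes were called. Over all genes 3502 were called, and 2318 without rods 500 replicate 3. The epithelial marker sum moved the same way, at 1692 to 4369 CPM in replicate 1, 1092 to 1977 CPM in replicate 2 and 657 to 2007 CPM in replicate 3, and its part in the replicate difference was not tested.

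Between the untreated layers the complement and inhibitor genes were higher in the apical layer. C3 was 768, 802 and 972 CPM in the apical and 64.3, 53.5 and 9.28 CPM in the basolateral control. C1S was 382, 402 and 499 CPM against 50.2, 39.6 and 4.04 CPM. No member overlapped between these groups, and the share of all genes without overlap between them is not given here. In edgeR 6 of 9 members were called higher in the apical layer, beside 26.7% of 14198 genes (54.1% called in either direction), with log2 differences of 4.20 ± 0.71 for C3 (adjusted p = 0.00485), 3.91 ± 0.84 for CFB (adjusted p = 0.0112), 4.06 ± 0.75 for C1R (adjusted p = 0.0066) and 3.65 ± 0.82 for C1S (adjusted p = 0.0133). SERPINA1 (3.51 ± 0.43) and SERPINA3 (4.28 ± 0.62) were called as well. FGB was 3176, 1565 and 773 CPM in the apical and 454, 120 and 7.42 CPM in the basolateral control. FGA, FGB and FGG differed by 3.35 ± 1.41, 3.11 ± 1.35 and 3.16 ± 1.38 and were not called (edgeR adjusted p 0.0949, 0.103 and 0.106). DESeq2 called all 9, beside 7719 of 14198 genes. In edgeR, CFB and C1S were not called without apical control replicate 3 (adjusted p = 0.0506 and 0.0576), and FGA and FGB were called without basolateral control replicate 1 (adjusted p = 0.0482 and 0.05).

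Basolateral levels were also set as a percent of the same-numbered apical level, beside 3 epithelial marker genes. For the controls, same-numbered deviations from group means correlated between layers at 0.141, 0.0328 and 0.119 in replicates 1 to 3, not all above the 0.1 asked of pairs. In the particle groups a match of replicate numbers between layers was not tested. The percents hold only where the numbers match. In control replicate 1 the 7 complement and fibrinogen members stood at 8.36 to 14.3% (median 11.8%), beside 14.4% for ALDH1A1 and 13.4% for AKR1B10, metabolic enzymes that A549 cells express strongly, and 36.6% for KRT18, an epithelial keratin. In control replicate 2 they stood at 6.68 to 9.84%, beside 7.32%, 6.10% and 25.9%. In control replicate 3 they stood at 0.556 to 0.961%, beside 1.92%, 0.644% and 17.9%. KRT18 lay above all of these members in each control library. Within the control, these members and the epithelial genes were all lowest in replicate 3. In stars 500 replicate 2 the fibrinogen genes were at 9.25 to 13.4% and C3, CFB, C1R and C1S at 1.05 to 3.29%, and in stars 500 replicate 3 at 0.199 to 0.384% and 0.995 to 2.40%. In bulk RNA, fewer cells of a type and less RNA per cell cannot be told apart, and whether the basolateral reads came from apical cells, from the basolateral line or from both was not tested.

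**Figure D5:**
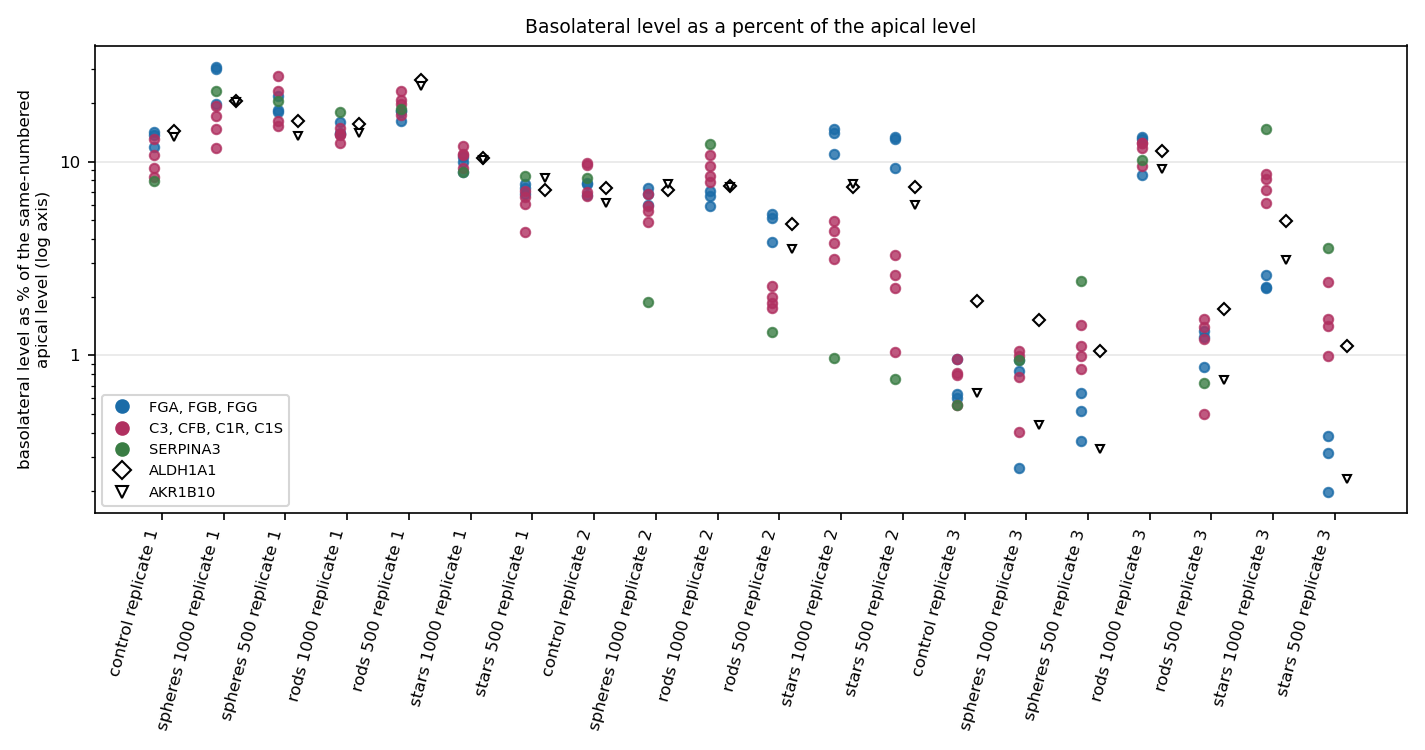
Basolateral level as a percent of the apical level of the same group and replicate number (log axis) for the members other than SERPINA1 and, in open symbols, ALDH1A1 and AKR1B10, in 20 basolateral libraries ordered by replicate. In control replicate 1 the complement and fibrinogen genes lie at 8.36 to 14.3% and in control replicate 3 at 0.556 to 0.961%; fibrinogen and complement genes part in the stars libraries of replicates 2 and 3.

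The complement pathway around the members was partly present. C5, the component cleaved after C3, had a median of 277 CPM in the apical layer. C4A and C4B, which C1S cleaves, had medians of 2.88 and 3.29 CPM, and C2 13.2 CPM. C4A and C4B are near-identical copies, so the split of reads between them is uncertain. Among the terminal components, C6, C7, C8A, C8B and C9 had apical medians of 0 CPM, and their maxima were 0.352, 0.492, 0, 0 and 0.255 CPM. C8G, also in the list, is not reported here. The membrane regulators CD55 and CD59 were higher in the basolateral layer, at medians of 1135 and 663 CPM against 604 and 108 CPM. Of 24 further complement activation genes 8 were tested between the untreated layers, and edgeR called 6 higher and 0 lower in the apical layer (median log2 difference 3.26). Of 18 regulators and receptors 13 were tested, 10 called higher, among them C4BPA (3.92), and 2 lower, CD55 (-1.03) and CD59 (-2.85). Over all 14198 genes 26.7% were called higher and 54.1% in either direction, with a median of -0.01.

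Other acute phase genes were unevenly expressed, and their counts between layers stand beside the same 26.7% and 54.1% of all genes. CP, the copper carrier ceruloplasmin, had an apical median of 1485 CPM, above the other 24 genes of the list, S100A9 187 CPM and S100A8 42.9 CPM. The classical hepatic markers CRP (0.406 CPM) and SAA1 (1.11 CPM) were low. Of these 25 genes 12 were tested between untreated layers, 11 called higher in the apical layer, CP by 4.19 (edgeR adjusted p = 0.015), and PTX3 called lower (-2.92). Among 16 genes of fibrin formation and removal 11 were tested, 6 called higher and 4 lower. The latter included ITGB3, a fibrinogen receptor subunit (-5.20), and the plasminogen activators PLAT (-2.99) and PLAU (-1.35). Of 25 genes of interleukin-6 signalling and hepatic transcription factors 24 were tested, 17 called higher and 2 lower, with HNF4A at 3.51. The lists carried 0 called genes in the 12 comparisons with control.

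By replicate number in the apical layer, edgeR called 1 of 12 tested complement activation genes (C5), 4 of 16 regulators and receptors (C3AR1, ITGAM and ITGAX among them), 3 of 16 other acute phase genes (LBP, SAA1 and CRP) and 5 of 25 genes of the interleukin-6 list (IL6ST, LIF, OSM and PIM1 among them), beside the 11.8% of all genes. Of 14 tested genes of fibrin formation and removal, ITGA2B was called.

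Over the 21 apical libraries, which share the KIT split, the genes most like FGB in TMM-scaled log2 CPM were FGG (Pearson r 0.997), FGA (0.991) and CAPG (0.98), and CAPG (0.974 and 0.981) followed the other chains for FGA and FGG too. C1R and C1S were each most like TMEM132A (0.961 and 0.964), with C1S next for C1R (0.946). CFB was most like DOCK4 (0.974) and C3 most like ITPR3 (0.96). SERPINA1 had no close companion, AK4 being the nearest at 0.755. In the 20 basolateral libraries FGA, FGB and FGG were again near each other (0.986 to 0.99), C3 and C1R were each most like CA12 (0.987 and 0.989), and CFB was most like CXCL5 (0.96). These coefficients describe libraries that share replicate and set differences.

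The CFB row was found by its identifier, because the table splits the symbol. A second row, which GENCODE 29 gives to a readthrough locus over C2 and CFB (chromosome 6, 31927698 to 31952048, plus strand), held 0.448 to 1.01 of the CFB counts in apical libraries. Reads could not be assigned to either with certainty, and summing both rows changed no call. C1S overlaps EMG1 on the same strand and C1R overlaps C1RL, so their counts may hold reads from those neighbours.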

How the data were processed

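Total RNA libraries (SMARTer Stranded Total RNA HI Mammalian kit, per the labels' protocols) were taken after 24 h. The authors deposited whole-number counts per gene, on GRCh38.p13 per the submitters' processing notes; for the aligner, counter, annotation and strand setting nothing is stated there. The 9 members and all lists were chosen with earlier results of these data known. Counts were tested with edgeR 4.0.16 (R 4.3.3; quasi-likelihood, robust, TMM scaling, filterByExpr) over all genes, with Benjamini-Hochberg adjustment and a threshold of 0.05. Particle comparisons used the 2 groups compared; tests of any difference, direct contrasts and replicate number used a layer's libraries. Alternatives were DESeq2 1.42.0, limma-voom (limma 3.58.1), other scalings and filters, replicate and KIT-set blocks, and leaving out each library. CPM were computed on total counts, and per kilobase with GENCODE 29 exon lengths. Most list genes were named as called by a test or among the 3 highest of their list. Others, the terminal complement components among them, were named to describe a low level. Of 181 list genes 180 were found, 3 of them by identifier. The code was tested on simulated counts. Some genes of the lists are not reported here.

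Replicate numbers were checked as pairs by correlating same-numbered deviations from group means. All 3 correlations exceeded 0.1 for apical spheres 1000 against control alone (0.149 to 0.439), so only that comparison met the rule for pairs. Basolateral spheres 500 had 2 pairs (0.627 and 0.675) and could not meet a rule that asks for 3. Within a layer, replicate 1 gave 0.276 to 0.686 in every comparison with control, and replicates 2 and 3 gave -0.178 to 0.675. Missing the rule therefore does not show that same-numbered libraries share nothing.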

Additional observations from a re-analysis of the deposited data

How the results depend on the processing

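No particle comparison called a member under any alternative run. Over all genes these comparisons called 0 with most settings, up to 4 with DESeq2, up to 7 with no filter and up to 27 with the replicate block. The replicate block, whose numbers met the rule for pairs only in apical spheres 1000 against control, called 0 members in every particle comparison. Between layers it called 5 of 9 members, beside 7427 of 14198 genes, and C1S was lost (3.97, edgeR adjusted p = 0.0554). Without a filter C1S was lost too (3.63, edgeR adjusted p = 0.0524). Members called by replicate number in the basolateral layer ranged from 3 to 9 with 1 library left out. The 9 came without rods 1000 replicate 3, where 4188 of 14560 genes were called. FGB in rods 1000 was 0.0023 with no filter. FGB in rods 500 was -0.16 with the replicate block, -0.17 with limma-voom and -0.15 with all 7 groups in 1 fit with the replicate block. With 1 library left out, FGB ran from -0.63 to 0.37 in spheres 1000, -0.11 to 0.94 in spheres 500, -0.68 to 0.64 in rods 1000, -1.11 to 0.66 in rods 500, -0.37 to 0.79 in stars 1000 and -0.56 to 0.87 in stars 500. C3 ran from -0.12 to 0.19 in spheres 1000 and from -0.24 to 0.089 in rods 500. For these reversals the cause was not tested. C3 kept its sign from -0.44 to -0.24 in spheres 500, -0.35 to -0.07 in rods 1000, -0.54 to -0.12 in stars 1000 and -0.61 to -0.12 in stars 500, SERPINA3 from -0.78 to -0.31 in spheres 500, and CFB from 0.24 to 0.58 in apical spheres 1000 and -2.27 to -1.10 in basolateral stars 500. No scaling moved the median of all genes between layers to 0.14. By its median SERPINA1 lay near the floor in the basolateral layer, and the floor of 3 counts covers counting error only.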
